A study of Homo sapiens with 12 samples.

Results

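The cytosolic ribosomal protein genes encode the proteins of the ribosome, the particle that translates mRNA. They were taken by symbol: RPL or RPS followed by a number and at most 1 letter A, X or L as the naming allows, RPLP0 to RPLP2, and RPSA, with at least 10 counts in each of the 12 libraries. Of 56634 gene rows, 82 matched by symbol and 78 met the count minimum, 32 of the small (40S) subunit and 46 of the large (60S) subunit. Just outside the minimum lay RPL36A, with 9 to 109 counts per library, and RPL3L, with 5 to 30. RPS10L had 4 counts over all libraries and RPL10L had none. The lowest genes inside were RPL39L, with at least 125 counts in each library, and RPS10, with at least 227. All 78 passed the low-count filter of the fit, which tested 14822 genes.

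RNA was sequenced from HEK293, an established human embryonic kidney cell line, in 4 groups of 3 biological replicates. Cells were plated 24 hours before treatment. The DMSO group received 0.1% DMSO vehicle for 3 hours, and the SnxB group received 1 µM Senexin B for the same total time. This compound blocks CDK8 and CDK19, kinases that associate with Mediator. The TNF group received vehicle for 1 hour and then 10 ng/mL TNF-α, an inflammatory cytokine, for 2 hours, and the TNF_SnxB group received 1 µM Senexin B for 1 hour and then the same TNF-α for 2 hours. All libraries came from 1 cell line and 1 dose of each agent. Libraries held 8705277 to 50943310 counts, so that the limit set by 3 counts lay between 0.0589 and 0.345 CPM (counts scaled to library size). Of 8 genes used as HEK293 markers, VIM had group means of 461.9 to 534.7 CPM and NEFL 40.74 to 56.91 CPM, while PAX2 and NEFM were under 1 CPM in each group. Summed markers reached at most 1.14 CPM for leukocytes, 0.528 CPM for endothelium and 19 CPM for fibroblasts, the last mostly COL1A1. TNF_SnxB libraries 2 and 3 stood apart from library 1 in a way that followed GC content. The chi-square per degree of freedom over genes was 5.785 and 5.507 for library 1 against libraries 2 and 3, and 1.211 between libraries 2 and 3. Calls that rest on these libraries are therefore given with and without them.

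A ribosome holds a single copy of nearly every one of these proteins, and excess unassembled proteins are degraded, so their genes are known for high and even expression in growing cells. Their mRNAs usually begin with a run of pyrimidines (C and T in DNA letters), the terminal oligopyrimidine or TOP motif, through which mTOR and LARP1 control their translation. Their transcription is known to draw on factors such as GABPA, YY1 and SP1 and on MYC. Translation was not measured here, and an RNA level does not report it.

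The start sites of 11 genes whose values are described below are printed here because most show that pyrimidine run. RefSeq promoters on GRCh38.p14 were found for 62 of the 78 genes. Each window below is 30 bases, 5′ to 3′ on the gene's strand, with 15 bases before the annotated start and 15 bases of the first exon. The longest unbroken run of C or T is in capitals. The first 5 belong to genes lower with Senexin B alone or close to the threshold, and the other 6 to genes called in a comparison with TNF-α present.
RPL41, chr12:56116618-56116647, plus strand: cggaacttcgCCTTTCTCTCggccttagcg
RPS23, chr5:82278340-82278369, minus strand: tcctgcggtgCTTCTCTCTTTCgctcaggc
RPS24, chr10:78033848-78033877, plus strand: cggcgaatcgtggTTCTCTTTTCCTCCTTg
RPL14, chr3:40457324-40457353, plus strand: gggcgggTCTTCTTCCTTCTCgcctaacgc
RPS6, chr9:19380222-19380251, minus strand: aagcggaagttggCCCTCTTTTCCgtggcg
RPS28, chr19:8321481-8321510, plus strand: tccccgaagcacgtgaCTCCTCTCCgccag
RPS15, chr19:1438381-1438410, plus strand: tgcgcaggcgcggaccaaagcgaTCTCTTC
RPLP1, chr15:69452803-69452832, plus strand: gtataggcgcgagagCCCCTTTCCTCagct
RPLP2, chr11:809952-809981, plus strand: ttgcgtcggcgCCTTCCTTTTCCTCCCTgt
RPL28, chr19:55385917-55385946, plus strand: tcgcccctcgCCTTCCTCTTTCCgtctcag
RPL9, chr4:39458908-39458937, minus strand: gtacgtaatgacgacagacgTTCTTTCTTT

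Within 20 bases either side of the start, a run of at least 8 C or T stood in 51 of the 62 ribosomal protein promoters (82.3%), against 17.3% of all 27305 promoters and 15.9% of those of other tested genes. The minimum of 8 was chosen after the sequences were seen. For 10 of the 62 genes more than 1 start is listed, and the first was used; with any listed start counted, the shares were 88.7% and 20.9%. The median longest run was 11 bases against 5. The letters CTTTCC occurred there on the sense strand in 24.2% of the ribosomal protein promoters and 1.97% of all, and CTTTTC in 16.1% and 1.6%. In RPS15 the printed window ends inside a run of 8. Not every gene described below has such a run. In the same 30 bases the longest was 6 in RPL11, 5 in RPS4X and 4 in RPL13. In RPS27L, a paralogue of RPS27 known as a p53 target, it was 3. RPS27A and RPS29 had 5 and 4 there, but both runs touch an edge of the 30 bases and may be longer.

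Other letters were searched on both strands of the whole 300-base promoters. CCGGAA, the core bound by ETS factors such as GABPA, was in 54.8% of the ribosomal protein promoters, 17.6% of all promoters and 29.1% of those of other tested genes. AAGATGGC (YY1) was in 9.68%, 3.03% and 5.33%, GGGCGG (SP1) in 54.8%, 44.6% and 71.4%, and TATAAA in 8.06%, 12.0% and 5.21%. CACGTG, the E-box letters that MYC can bind, was in 3 of 62 (4.84%), RPL19, RPL13A and RPS28. It was in 7.43% of all promoters and 10.3% of those of other tested genes. In RPS28 it lies in the printed window, just before the pyrimidine run. A match is a string of letters and shows no binding.

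With vehicle alone the genes were abundant. In the DMSO group 38 of the 100 genes of highest CPM were ribosomal protein genes. RPS4X, a small-subunit protein encoded on the X chromosome, was the highest at 4817 ± 24.0 CPM (SD, n = 3). It was followed by RPS2 at 3491, RPL4 at 3122, RPS6 at 2998 and RPL8 at 2429 CPM. These 5 held 18.8% of the CPM of all 78, and the highest gene was 351-fold above the lowest, RPL39L.

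Per kilobase of transcript, which allows levels to be compared between genes, the median was 1378 CPM per kb and the quartiles were 849 and 1900. RPS2 was the highest at 3778 CPM per kb, and 56 of the 78 lay within 2-fold of the median. The medians of the small and large subunit, 1340 and 1409 CPM per kb, were close. Of the 77 pairs of neighbours in the order of levels, 54 had overlapping DMSO libraries, so most of the order is not resolved. Transcript lengths and GC content came from the GENCODE 29 protein-coding transcript of middle length. Levels per kilobase depend on that choice, which gave RPS28 1326 bases and RPL32 1734 bases, at ranks 73 and 71 of 78. The median length was 699 bases, against 2238 for all tested genes, and the median GC content was 50.02%, against 50.05%.

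**Figure D1:**
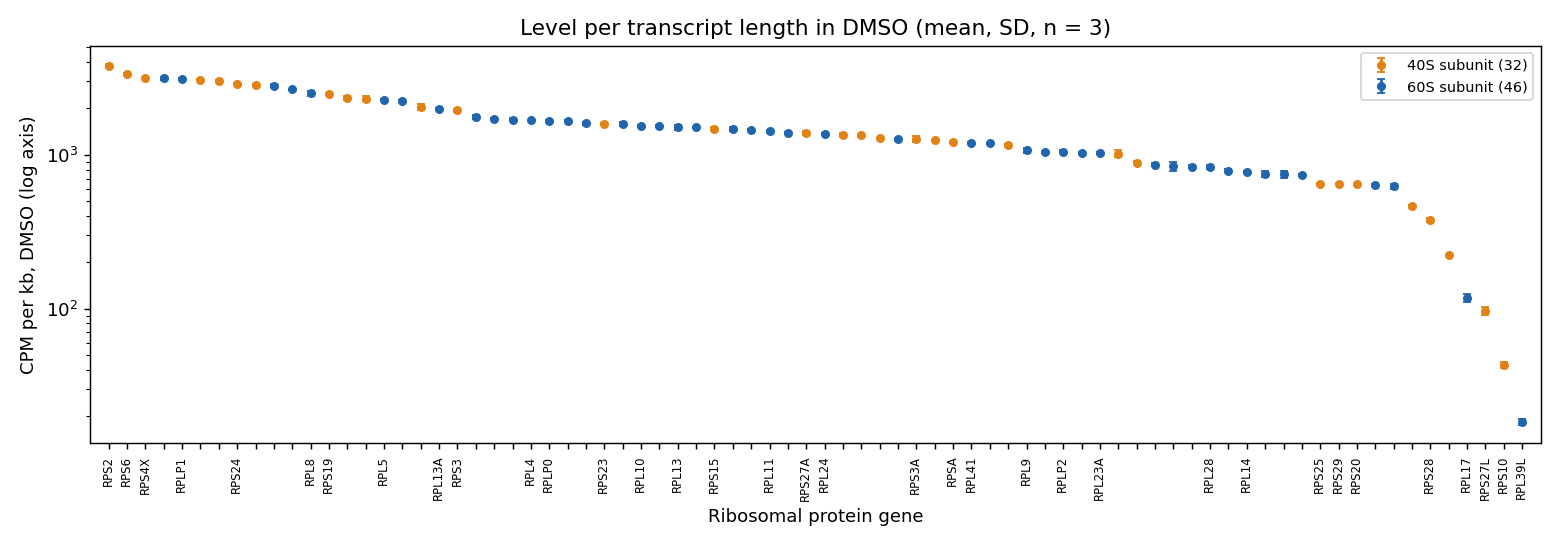
Level of each of the 78 ribosomal protein genes per kilobase of transcript in the DMSO group (log axis, points are means of 3 libraries, bars are SD; a selection of genes is labelled). Most genes form a plateau around 1378 CPM per kb, and RPL17, RPS27L, RPS10 and RPL39L lie far below it.

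The 4 lowest genes lay under 0.1 times the median. RPL39L, the paralogue of RPL39 known from testis, had 18.33 CPM per kb beside 838 for RPL39. RPS27L had 96.55 beside 2048 for RPS27. RPS10 had 43.2 and RPL17 116.7 CPM per kb. RPS10 shares 39.4% of its exon bases with the readthrough gene RPS10-NUDT3, and RPL17 shares 24.8% with RPL17-C18orf32. Both readthrough rows had means under 1 CPM in each group. Whether reads in shared exons were counted is not given in the sources used here, so the levels of RPS10 and RPL17 are uncertain. The same holds for RPL36, which shares 17.6% with HSD11B1L, and for members with many processed pseudogenes: 1002 ribosomal pseudogene symbols were in the table and together took 0.0861% to 0.0922% of each library.

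The share of each library's counts on the 78 genes was close to constant. It was 8.86% to 8.94% in DMSO (mean 8.89% ± 0.0416, SD, n = 3), 8.73% to 8.78% in SnxB (8.746% ± 0.0311) and 8.79% to 8.83% in TNF (8.805% ± 0.0218). In TNF_SnxB it was 8.764% in library 1 and 8.298% in the lowest (8.48% ± 0.249). The 3 SnxB libraries lay below all 3 DMSO libraries, and TNF_SnxB library 1 lay within the range of the SnxB libraries. Large-subunit counts were 1.325 to 1.341 times the small-subunit counts in every library. These shares were given no test. CPM and shares are relative to the rest of the RNA in a library, so less of these mRNAs and more of other RNA cannot be told apart. A change in total RNA per cell would not show.

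**Figure D2:**
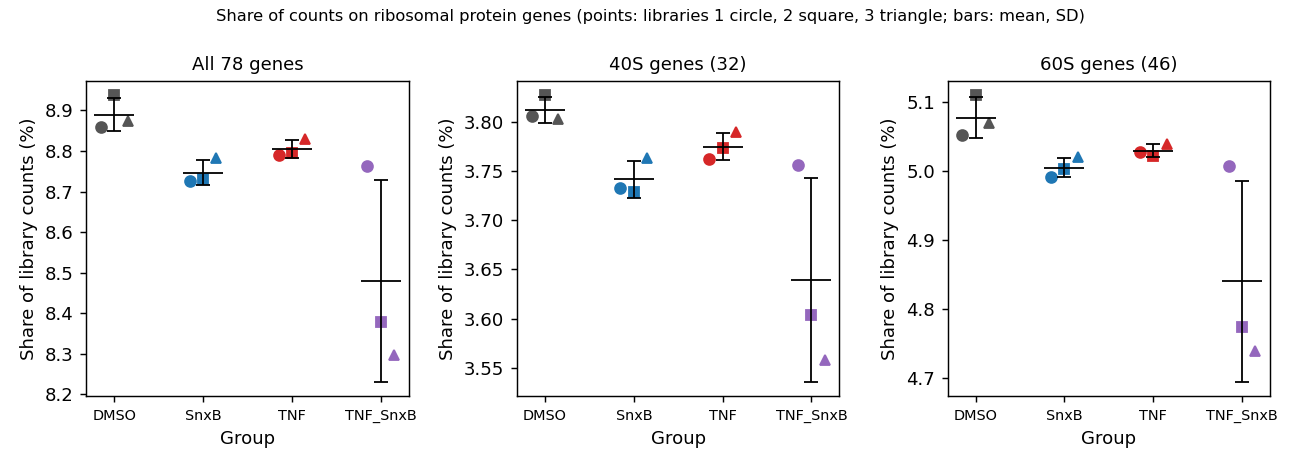
Share of library counts (%) on all 78 ribosomal protein genes, the 32 small-subunit genes and the 46 large-subunit genes, by group (points are libraries, bars mean and SD, n = 3; axes do not start at 0). The SnxB libraries sit below the DMSO libraries, and 2 of the 3 TNF_SnxB libraries sit below all others.

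The first comparison asked what 3 hours of Mediator kinase inhibition did without the cytokine. With Senexin B, 73 of the 78 genes were below their DMSO level, by a median of -0.056 on the log2 scale, against a median of 0.002 over all tested genes. The median was -0.049 over 32 small-subunit and -0.057 over 46 large-subunit genes, and the difference was not tested. The test called 5 genes lower (6.41%) and 0 higher (edgeR's quasi-likelihood test, Benjamini-Hochberg adjusted p under 0.05). Of all tested genes 1.69% were called lower and 0.344% higher. Of the 2324 other genes of at least 100 CPM, 4.91% were called lower and 0.775% higher. At an unadjusted p under 0.05 the counts were 25 lower and 0 higher, against 1007 lower and 783 higher of all 14822 tested genes. All 3 SnxB libraries were below all 3 DMSO libraries in 43 genes (55.1%), against 10.9% of all tested genes, and above them in 1, against 9.49%.

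RPL41, which encodes the smallest ribosomal protein, fell the most among the called genes. Its CPM was 570.4, 552.2 and 558 in the DMSO libraries and 508.6, 495.7 and 505 in the SnxB libraries. The groups did not overlap, and the change was -0.16 (SE 0.0377, edgeR adjusted p = 0.0215), or 10.2% less. RPS23, which lies at the decoding centre, had 1339, 1332 and 1327 CPM with vehicle and 1230, 1245 and 1222 with Senexin B. Every inhibitor library was again below every vehicle library (-0.11, SE 0.0276, edgeR adjusted p = 0.0223). RPS24, a small-subunit protein needed to process ribosomal RNA, had 1677, 1676 and 1708 CPM against 1557, 1560 and 1590. It fell by 0.10 (SE 0.0259, edgeR adjusted p = 0.0257).

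RPL23A sits at the exit of the peptide tunnel, where factors meet the nascent chain. It had 662.8, 653 and 643.2 CPM in DMSO and 597.3, 608.1 and 590.4 in SnxB, with no overlap (-0.13, SE 0.0319, edgeR adjusted p = 0.0308). RPL14 of the large subunit had 692.7, 711.2 and 717.2 CPM against 669.3, 644 and 634.9, the closest approach of the groups among the 5 (-0.12, SE 0.0314, edgeR adjusted p = 0.0311). RPS6, the small-subunit protein phosphorylated by S6 kinases, had 3008, 2971 and 3015 CPM against 2840, 2837 and 2840. Its groups were far apart for their spread, yet its change of -0.08 did not pass (SE 0.0234, edgeR adjusted p = 0.0835).

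Other genes of known special roles did not pass the test. RPL5 and RPL11, which form the 5S particle and can bind MDM2, were at -0.07 and -0.06, and in both genes the inhibitor libraries were below the vehicle libraries. RPLP0, RPLP1 and RPLP2 form the stalk that recruits elongation factors, and they split: RPLP0 was at 0.01, RPLP1 at -0.08 and RPLP2 at -0.12. RPS27A, which is made as a fusion with ubiquitin, was at -0.06, RPL10, which joins late in assembly, at -0.05, and RPS19, known from Diamond-Blackfan anaemia, at -0.05. RPS3 was at -0.03, RPSA at -0.002 and RPL13A at -0.003. Of the most abundant genes RPS4X was at -0.05, RPS2 at -0.03, RPL4 at -0.03 and RPL8 at -0.06, and of the scarce ones RPS10 was at -0.13 (SE 0.0709) and RPS27L at -0.08. The 2 genes of smallest p among those above 0 were RPL39L at 0.09 (SE 0.0917) and RPS20 at 0.03 (SE 0.0348), and neither passed.

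**Figure D3:**
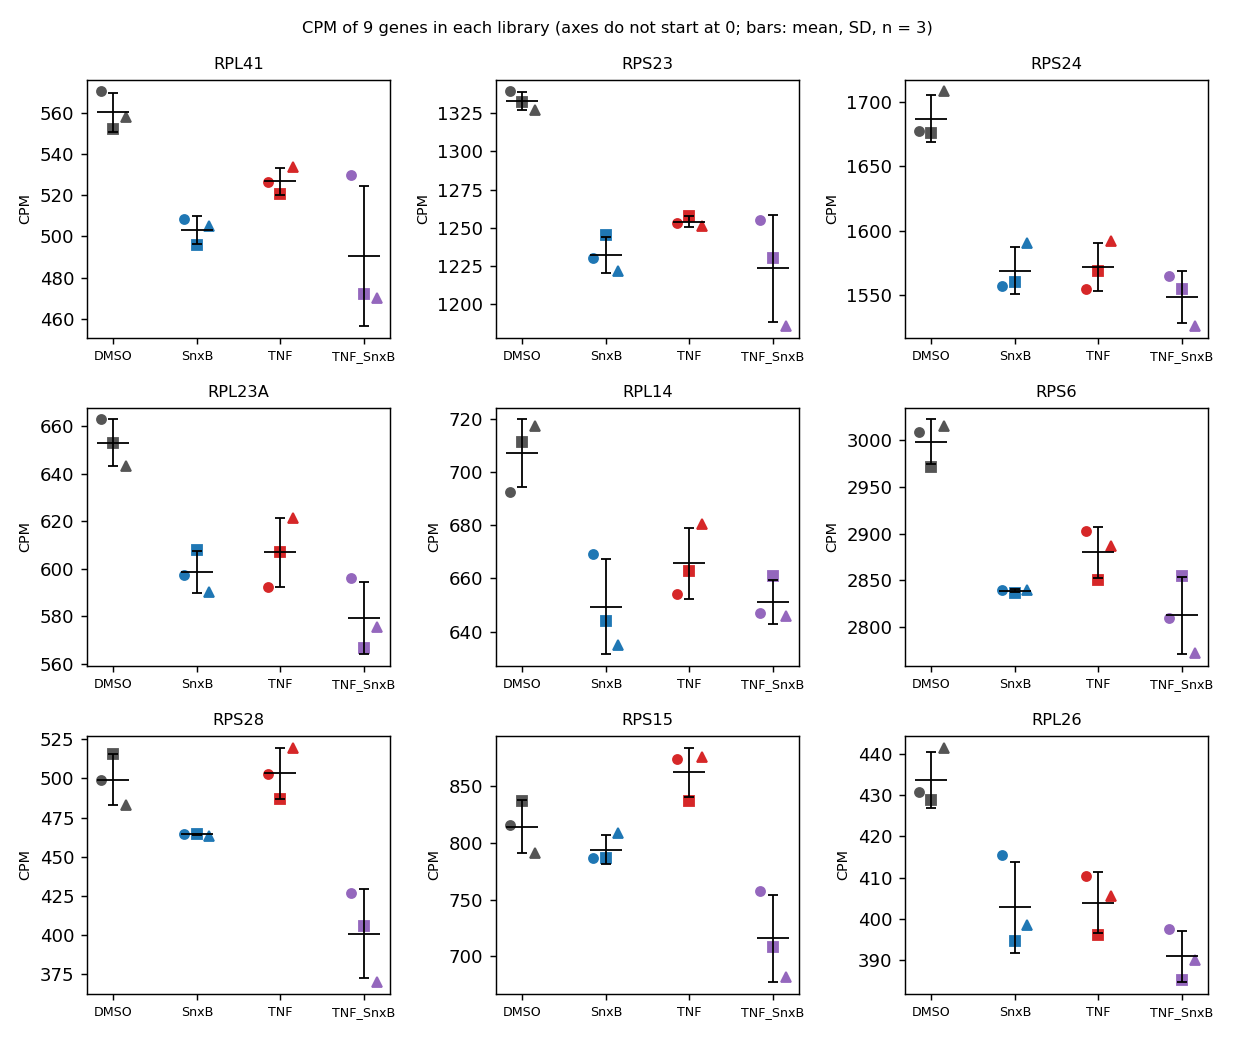
CPM in each of the 12 libraries for 9 ribosomal protein genes (circle, square and triangle are libraries 1, 2 and 3; bars are mean and SD; axes do not start at 0). In the first 2 rows the SnxB libraries lie below the DMSO libraries, and for RPS28 and RPS15 the TNF_SnxB libraries lie below all TNF libraries.

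These calls depend on the shared estimate of spread. Without TNF_SnxB libraries 2 and 3 the same comparison called 34 genes lower, the 5 above among them, where 4.08% of all tested genes were called lower. Fitted on the 6 libraries of the comparison alone it called 22 (3.79% of all). Leaving out any 1 of the 6 libraries left 0 or 1 call: RPL41 without DMSO library 2, RPL14 without SnxB library 1, and none without DMSO 1, DMSO 3, SnxB 2 or SnxB 3. In those fits 0.991% to 1.18% of all tested genes were called lower. Across them the median of the ribosomal protein genes stayed between -0.053 and -0.059. When GC content and length were corrected for, the median was -0.048, with 69 genes below 0 and 9 called lower (3.22% of all).

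Medians were close whether or not the start sequence held these letters, and the difference was not tested. The 51 genes with a run of at least 8 C or T at the start had a median of -0.058 and the 11 without one -0.049. The 34 with CCGGAA had a median of -0.058 and the 28 without it -0.047. Genes of high expression leaned lower in general in this comparison: of 2324 other genes of at least 100 CPM, 1434 were below 0, with a median of -0.016, and 22.8% had all SnxB libraries below all DMSO libraries. The difference between the ribosomal protein genes and these was not tested.

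The second comparison set TNF-α alone against vehicle. Of the 78, 44 were below and 34 above 0, with a median of -0.011, and 1 was called lower and 0 higher, where 0.594% and 1.43% of all tested genes were called lower and higher. At an unadjusted p under 0.05 the counts were 11 lower and 2 higher, against 751 lower and 794 higher of all 14822 tested genes. That 1 gene was RPS24, with 1555, 1569 and 1592 CPM in the TNF libraries, below its 3 vehicle values given above (-0.10, SE 0.0258, edgeR adjusted p = 0.0295). It did not remain called when any 1 DMSO or TNF library was left out, nor after the GC and length correction, where RPL23A was called instead (1.4% of all tested genes were called lower there). RPS15, a small-subunit protein near the decoding site, was at 815.5, 837.2 and 790.8 CPM with vehicle and 874, 837.2 and 876.2 with TNF-α. It and RPS29 had the smallest p among genes above 0, at 0.08 and 0.07, and neither passed.

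Without TNF_SnxB libraries 2 and 3 the TNF-α comparison called 9 genes lower and 3 higher, where 2.21% and 3.41% of all tested genes were called. Those lower were RPL14, RPL22, RPL23A, RPL26, RPL41, RPS6, RPS23, RPS24 and RPS25, and those higher were RPL13, RPS15 and RPS29; they were named after their values were seen. The TNF-α and Senexin B comparisons use the same 3 DMSO libraries, so low values in both are not separate evidence. For RPL41 the TNF-α value was -0.09 beside -0.16 for Senexin B, and for RPL23A it was -0.11 beside -0.13. Among the 26 genes of lowest GC content (39.66% to 47.64%) 20 were below 0 with TNF-α, and among the 26 of highest (52.67% to 63.58%) 6 were.

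The comparison of TNF_SnxB with TNF asked what Senexin B did when the cytokine was present. In all, 61 genes were below 0, with a median of -0.068, against 0.001 over all tested genes. The test called 30 lower and 0 higher, 11 of the small and 19 of the large subunit. In this comparison 13.9% of all tested genes were called lower and 13.3% higher. All TNF_SnxB libraries were below all TNF libraries in 30 genes (38.5%), against 16.4% of all tested genes. Of the other genes of at least 100 CPM, 26.5% were called lower and 17.8% higher, and in 580 of 2324 all TNF_SnxB libraries were below all TNF libraries. The difference between the ribosomal protein genes and these was not tested.

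RPS28, a small-subunit protein near the path by which mRNA leaves, showed the smallest adjusted p. It had 503.1, 486.6 and 519.7 CPM in the TNF libraries and 426.5, 406 and 370 in TNF_SnxB. No libraries overlapped, and the change was -0.33 (SE 0.0405, edgeR adjusted p = 1.41e-06), or 20.4% less. RPS15 had its TNF values given above and 757.3, 708.5 and 681.4 CPM in TNF_SnxB. It fell by 0.27 (SE 0.0348, edgeR adjusted p = 3.04e-06). RPL28 of the large subunit had 542.4, 537.2 and 561.3 CPM against 491.7, 439.6 and 430 (-0.27, SE 0.04, edgeR adjusted p = 2.32e-05). In each of these genes library 1 was the nearest of the 3 to the TNF group, and still below it.

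The stalk proteins RPLP1 and RPLP2 were lower as well. RPLP1 had 1425, 1389 and 1427 CPM in TNF and 1312, 1184 and 1170 in TNF_SnxB (-0.21, SE 0.0342, edgeR adjusted p = 7.58e-05). RPLP2 had 665.1, 638 and 653.7 against 577.5, 537.7 and 533 (-0.25, SE 0.0356, edgeR adjusted p = 1.6e-05). RPLP0, the base of the stalk, had 1669, 1697 and 1668 against 1696, 1489 and 1510. It passed the test, but its library 1 lay within the TNF range, so the groups overlapped.

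Some of the calls rested on libraries 2 and 3 in the same manner. RPS2, a small-subunit protein at the entry of the mRNA channel, had 3485, 3518 and 3485 CPM in TNF and 3474, 2854 and 2860 in TNF_SnxB. RPL8, near the peptidyl transferase centre, had 2433, 2365 and 2412 against 2409, 1945 and 1946. Both were called lower with all libraries, at -0.19 and -0.20, and were at -0.011 and 0.002 with library 1 alone. RPS4X and RPL4 were at -0.04 each, RPS6 at -0.03 and RPL5 at 0.02, and none of these passed. The 2 genes of smallest p above 0 were RPL24, at 0.07, and RPL9, at 0.08, and neither passed.

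These values moved with GC content. Across the 78 genes the Spearman correlation of the change with GC content was -0.757, and across 13464 tested genes with a GC value it was -0.685. Of the 26 genes of highest GC content 23 were called lower, and of the 26 of lowest 1 was, RPL37. In libraries 2 and 3 the genes' deviation correlated with GC content at -0.642 and -0.685, and in library 1 at 0.109. In the 3 TNF libraries it correlated at 0.747, 0.648 and 0.669. With TNF_SnxB library 1 alone the change against TNF also moved with GC content. Its median was then -0.068 in the 26 genes of highest GC content and -0.019 in the 26 of lowest. Correcting each library for GC content and length, with the curve fitted without these 78 genes, brought the correlation over all libraries to 0.19.

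**Figure D4:**
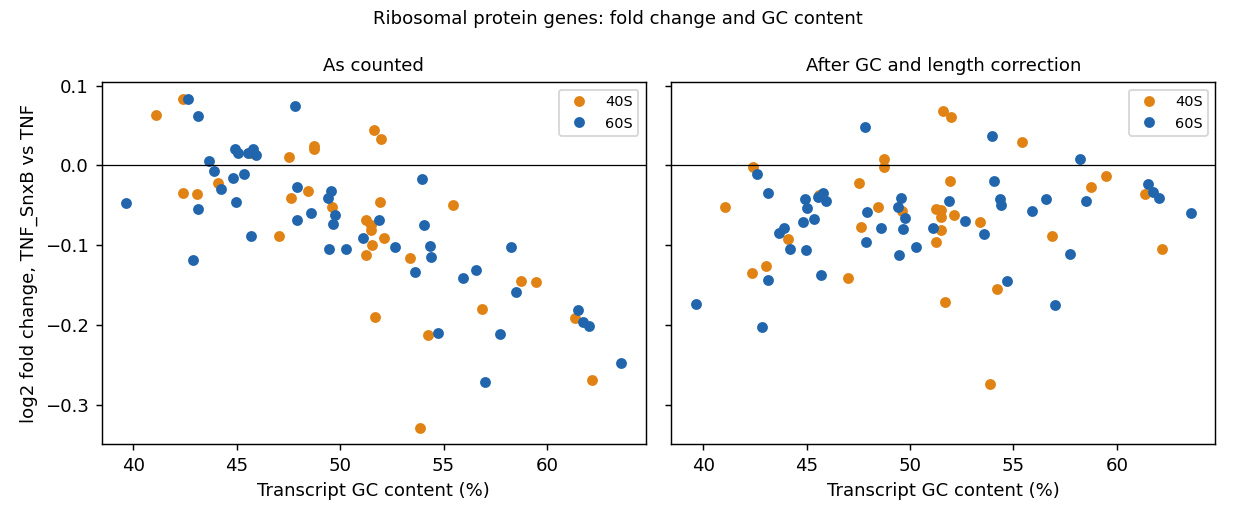
Log2 fold change of the 78 ribosomal protein genes, TNF_SnxB against TNF, by transcript GC content (%), as counted (left) and after the GC and length correction (right). The downward slope at left (Spearman -0.757) is gone at right (0.19), where most genes still lie below 0.

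After that correction 71 genes were below 0, with a median of -0.058. The test then called 26 lower and 0 higher (6.61% and 5.82% of all tested genes). Of the 30 calls without the correction, 14 were shared. The calls moved along GC content: 11 were now among the 26 genes of lowest GC content and 8 among the 26 of highest. Medians went from -0.009 to -0.074 in the 26 of lowest and from -0.152 to -0.047 in the 26 of highest. With TNF_SnxB library 1 alone, which assumes that it varies like the other groups, 56 were below 0, with a median of -0.033. There 9 were called lower, RPL10, RPL28, RPLP1, RPLP2, RPS7, RPS15, RPS16, RPS19 and RPS28, and 1 higher, RPS14, where 1.91% and 0.727% of all tested genes were called lower and higher. RPS28, RPS15, RPL28, RPLP1 and RPS16 were also called in each of the 21 alternative fits of this comparison. RPS28 ranged from -0.37 to -0.23 over them, RPS15 from -0.31 to -0.10, RPL28 from -0.33 to -0.15, RPLP1 from -0.26 to -0.11 and RPS16 from -0.26 to -0.11.

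The inhibitor's effects without and with TNF-α come from separate libraries and can be set side by side. With all libraries 73 genes were below 0 without TNF-α and 61 with it, and 57 were below 0 in both. The Spearman correlation across the 78 genes was -0.116. After the GC and length correction 69 and 71 were below 0, and 63 in both (0.133). With TNF_SnxB library 1 alone 73 and 56 were, and 53 in both (0.16). Most genes were below 0 in each comparison, so these counts do not show that the same genes moved. RPL41 was at -0.16 without the cytokine and at 0.01 with it in library 1, and RPS28 was at -0.10 and -0.23.

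**Figure D5:**
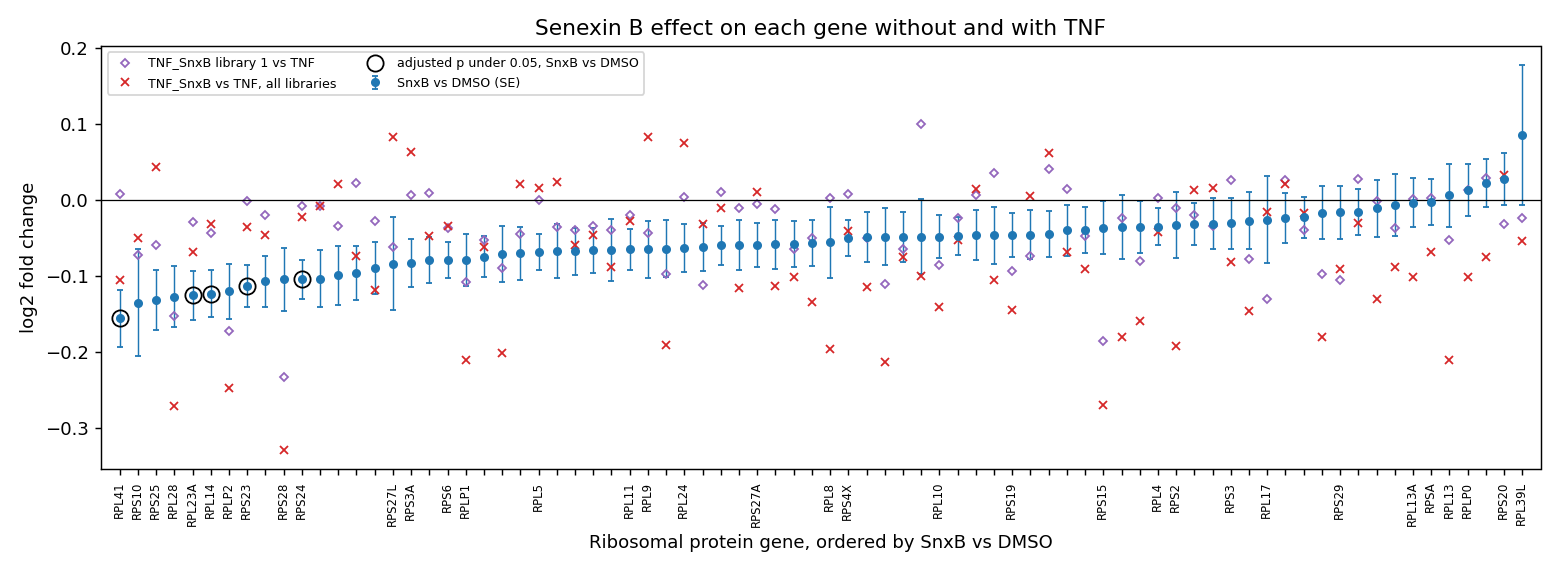
Log2 fold change with Senexin B for each of the 78 genes, without TNF-α (blue, bars are SE; black rings mark the 5 calls), with TNF-α over all libraries (red crosses) and with TNF_SnxB library 1 alone (purple diamonds); a selection of genes is labelled. The blue points lie below 0 for 73 genes, and the crosses spread from -0.33 to 0.08.

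Whether the effect of Senexin B itself differed with the cytokine was tested as the interaction. The test called 3 genes lower and 0 higher, where 1.61% and 0.891% of all tested genes were called. These were RPS15 (-0.23, SE 0.0495, edgeR adjusted p = 0.0265), RPS28 (-0.22, SE 0.0576, edgeR adjusted p = 0.0396) and RPL13 (-0.22, SE 0.0588, edgeR adjusted p = 0.0455). All 3 were among the 26 genes of highest GC content. The Spearman correlation of the interaction with GC content was -0.744 across the 78 genes. RPL13, a large-subunit protein, had 2355, 2295 and 2289 CPM in TNF and 2233, 1880 and 1891 in TNF_SnxB. Its SnxB values of 2135, 2204 and 2267 overlapped its DMSO values of 2206, 2256 and 2114. None of the 3 was called without TNF_SnxB libraries 2 and 3, where RPL41 and RPS14 were called higher instead (0.0786% of all tested genes). After the GC and length correction RPS28 was called lower and RPS25 higher (0.162% and 0.25%). Leaving out any 1 library other than DMSO 2 or TNF_SnxB 1 left 0 calls, where 0.0198% to 0.107% of all tested genes were called. RPS3A and RPS25 had the smallest p above 0, at 0.15 and 0.18, and did not pass with all libraries.

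With Senexin B present in both groups, TNF-α was associated with 12 genes called lower and 2 higher, where 6.83% and 7.38% of all tested genes were called. Of other genes of at least 100 CPM, 11.0% were called lower and 15.1% higher. All TNF_SnxB libraries were below all SnxB libraries in 8 genes (10.3%, against 10.9% of all tested genes). They were above them in 11 (14.1%, against 11.8%). The Spearman correlation of this change with GC content was -0.654 across the 78 genes. All 12 lower calls were among the 26 genes of highest GC content, and the 2 higher calls were among the 26 of lowest. RPL9 rose from 791.3, 784.9 and 789.4 CPM in SnxB to 804.7, 922.3 and 904.3 in TNF_SnxB (0.15, SE 0.0378, edgeR adjusted p = 0.00855). RPS27L rose from 62.11, 62.43 and 64.85 to 64.97, 75.93 and 74.13 CPM (0.19, SE 0.0598, edgeR adjusted p = 0.0332). In both genes library 1 lay just above the SnxB range and libraries 2 and 3 well above it. The 5 lower genes of smallest p were RPS28 at -0.21, RPLP2 at -0.16, RPS15 at -0.15, RPL28 at -0.17 and RPS2 at -0.16. With library 1 alone none of the 14 remained, and RPS14 was called higher (1.16% of all tested genes). After the GC and length correction 8 were called lower and 1 higher (1.71% and 3.25%), and 2 of the 14, RPS28 and RPL13, were among them. The correlation with GC content was then 0.35, and 6 of the 8 were among the 26 genes of lowest GC content.

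Some ribosomal proteins carry other symbols. FAU, whose product carries the small-subunit protein eS30, had a mean of 425.5 CPM in DMSO and 403.5 in SnxB, and RACK1, a scaffold on the small subunit, had 3023 and 2975. Both were below 0 and neither was called. In TNF_SnxB against TNF both were called lower, at -0.19 and -0.10. RACK1 had 3030, 3061 and 3015 CPM in TNF and 3129, 2631 and 2715 in TNF_SnxB, so its library 1 lay above the TNF group. With library 1 alone FAU was at -0.05 and RACK1 at 0.04, and neither was called. After the GC and length correction FAU was called, at -0.09, and RACK1 was not, at -0.05. Among 4 paralogues outside the symbol pattern (RPL22L1, RPL7L1, RPL26L1 and RPL36AL) 0 were called in either comparison.

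Of 14 tested translation factors and other genes with TOP mRNAs, 2 were called lower with Senexin B alone and 0 higher. NPM1, the nucleolar histone chaperone, went from 2713 to 2481 CPM in the mean (-0.13, edgeR adjusted p = 0.01145), and HNRNPA1, a splicing factor, from 1798 to 1683 (-0.10, edgeR adjusted p = 0.04713). EEF1B2, an exchange factor for elongation, did not pass at -0.11. Of the 14, 11 were below 0, with a median of -0.048. In TNF_SnxB against TNF the list was even, with 7 of 14 below 0 and a median of -0.002. EEF1D and EEF2, elongation factors, were called lower, at -0.255 and -0.18, and EIF3E, an initiation factor subunit, and NAP1L1, a histone chaperone, higher, at 0.14 and 0.12. With library 1 alone 0 were called and 9 were below 0. After the GC and length correction 13 were below 0, and EEF1A1, NPM1 and HNRNPA1 were called lower. EEF1G was at 0 counts in every library and could not be tested.

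Of 8 dedicated ribosomal protein chaperones, 0 were called with Senexin B alone. In TNF_SnxB against TNF, GRWD1, the chaperone of RPL3, and RPS19BP1 were called lower, at -0.28 and -0.16, and LTV1, a small-subunit export factor, was called higher, at 0.15. With library 1 alone they were at -0.18, -0.06 and 0.15, and after the GC and length correction at -0.12, 0.03 and 0.02, and GRWD1 was the one still called in each. Of 13 regulators of these genes, 1 was called with Senexin B alone. It was MYC, a transcription factor known to drive ribosome production, with a mean of 91.05 CPM in DMSO and 18.05 in SnxB, and 90.51 in TNF and 21.92 in TNF_SnxB (-2.33 and -2.06, edgeR adjusted p = 4.289e-20 and 5.558e-20). With TNF_SnxB library 1 alone MYC was at -1.84, and after the GC and length correction at -1.88, and it was called in both. Its change was far larger than that of any ribosomal protein gene. MTOR, LARP1, GABPA, YY1 and SP1 lay between -0.08 and 0.09 without TNF-α and did not pass. In TNF_SnxB against TNF 6 regulators were called lower, MYC, MAX, RPTOR, LARP1, RPS6KB2 and EIF4EBP1, and 2 higher, GABPA at 0.26 and RPS6KB1 at 0.20. With library 1 alone MYC was the 1 called, and GABPA was at 0.10. After the GC and length correction MYC and LARP1 were called lower, and GABPA was at 0.035 and did not pass. The mRNAs of the mitochondrial ribosome, a separate particle, served as a further reference: of 78 tested genes 46 were below 0 with Senexin B, with a median of -0.019, and 1, MRPS6, was called lower.

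Replicates of these genes were tight except in TNF_SnxB. The median coefficient of variation over the 78 genes was 4.37% in TNF_SnxB. With DMSO it was 1.775%, with SnxB 1.315% and with TNF 1.24%. Over all tested genes of at least 100 CPM it was 5.436% in TNF_SnxB and 2.672%, 2.072% and 1.748% in the others. RPL39L, the gene with the fewest counts, had 13.16 to 15.04 CPM over all 12 libraries, and its standard errors were the largest.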

How the data were processed

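Bulk RNA sequencing measured 12 HEK293 libraries, 3 per group. Per the labels' protocols, total RNA was purified on RNeasy columns and made into Illumina TruSeq RNA libraries. The authors deposited whole-number counts for each gene symbol, without normalization. The submitters' processing notes name STAR 2.4, SAMtools 1.2, featureCounts of Subread 1.4.6 and the build hg38 (GRCh38). The sources used here do not give the annotation, the strand setting or the handling of multimapping reads. Labels call the replicates biological, without a culture day.

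The counts were scaled by TMM (factors 0.9886 to 1.0142), and CPM uses these scaled totals. edgeR 4.0.16 (R 4.3.3) fitted group means to all 12 libraries after filterByExpr (14822 genes tested, biological coefficient of variation 3.49%). The quasi-likelihood F test was two-sided, with Benjamini-Hochberg adjustment over all tested genes and calls at adjusted p under 0.05. It was tested on simulated counts. Named genes were, per comparison, up to 5 members called in each direction by smallest adjusted p, or the 2 of smallest p where none was called, plus the 5 highest and 3 lowest genes and a list of genes of known role. The members and lists were chosen with earlier results of these data known.

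Alternatives were DESeq2 1.42.0, its size factors, no low-count filter, scaling without the members, only the groups compared, a replicate block, a loess correction for GC content and length (span 0.3, GENCODE 29 on GRCh38, fitted to 90.8% of tested genes), no TNF_SnxB libraries 2 and 3, and each library left out. Promoter sequences are from RefSeq (GRCh38.p14), and 16 members are absent from that table. Over all pairs of groups the deviations of same-numbered libraries correlated at -0.226 to 0.324. With 3 libraries per group these values cannot exclude that same-numbered libraries shared a culture. Some genes are not reported here by name.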

Additional observations from a re-analysis of the deposited data

Results flagged for a closer look

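The effect of Senexin B differed between cells without and with TNF-α, by edgeR's interaction test, for 3 ribosomal protein genes. RPS15 was at -0.23, RPS28 at -0.22 and RPL13 at -0.22 on the log2 scale, lower with the cytokine. None of the 3 was called without TNF_SnxB libraries 2 and 3, where their values were -0.15, -0.13 and -0.06, and RPS28 alone of them was called after the GC and length correction. The part of those libraries in the difference beyond these values was not tested.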

How the results depend on the processing

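Counts of called ribosomal protein genes moved by over 1.5 times as follows. TNF against DMSO (1 called) gave 0 without the low-count filter, 10 on only the groups compared and 12 without TNF_SnxB libraries 2 and 3. SnxB against DMSO (5) gave 9 with the GC and length correction, 22 on only the groups compared and 34 without those 2 libraries. TNF_SnxB against TNF (30) gave 18 and 10 under the last 2 settings. TNF_SnxB against SnxB (14) gave 9 with the GC and length correction, 9 without the filter, and 1 under each of the last 2 settings. Of all tested genes, 5.34%, 5.19%, 16.8% and 3.54% were called on only the groups compared, in that order. Without the filter 1.04% and 6.38% were called for TNF against DMSO and TNF_SnxB against SnxB. With the correction 4.35% and 4.97% were called for SnxB against DMSO and TNF_SnxB against SnxB. Each library was also left out in turn, those of groups not compared added after seeing the data. The counts then ran from 0 to 13, 0 to 34, 17 to 56 and 2 to 50 in the same order. For the interaction they ran from 0 to 46. The highest counts came without TNF_SnxB library 1, where 5.78%, 5.82%, 44.8%, 35.7% and 30.0% of all tested genes were called. The mean share of counts ran from 8.866% to 8.905% in DMSO, 8.729% to 8.757% in SnxB, 8.793% to 8.812% in TNF and 8.338% to 8.571% in TNF_SnxB.

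The replicate block gave 5 interaction calls in place of 3, where 4.97% of all tested genes were called. With the GC and length correction it gave 10 calls for SnxB against DMSO (4.6% of all). In each comparison with DMSO 0 of 6 libraries correlated best with their own number. It was 4 of 6 in TNF_SnxB against TNF and 2 of 6 in TNF_SnxB against SnxB. Over 118 pairs of a named gene and a comparison, 2204 of 2454 alternative values stayed on their side of the threshold, 175 lost the call, 68 gained it and 7 of called pairs reversed. Of the 2204, 2115 kept their sign and 89, called in neither fit, changed it. Without TNF_SnxB libraries 2 and 3, the reversals were RPL13A to 0.002, RPL8 to 0.002 and RPLP0 to 0.013 against TNF, and RPS2 to 0.027 and RPL8 to 0.044 against SnxB. RPLP2 against SnxB reversed to 0.006 with the GC and length correction, with or without the block. The causes were not tested.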
